A study of Homo sapiens with 2 samples.

Results

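A set of 10 genes of the canonical Wnt pathway was followed in RNA sequencing data of PLC/PRF/5 cells, a long-established line from a human hepatocellular carcinoma. They were chosen by symbol and matched by Entrez identifier, and all 10 were found among the 27685 genes of both libraries. One library came from cells kept for 24 h in DMSO, the solvent, and 1 library from cells kept for 24 h in 6 µM JIB-04, a small molecule that inhibits Jumonji histone demethylases. One label of the control library reads untreated, whereas its title names DMSO, and it was taken as the DMSO control. With 1 library per condition there was no replicate error and no test across replicates, so each difference compares 2 libraries of a single cell line.

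In canonical Wnt signaling, a secreted ligand binds a Frizzled receptor and the co-receptor LRP5 or LRP6, which stops the destruction complex of Axin, APC and GSK3 from marking β-catenin for degradation. β-Catenin then enters the nucleus and activates genes together with TCF and LEF factors. Several of these target genes encode inhibitors of the pathway itself, and in liver the pathway is known for setting the gene program of hepatocytes around the central vein. Despite the working name of Wnt antagonists and targets, the set holds members of several roles. WNT9A encodes a ligand and DKK1 a secreted antagonist that binds LRP5 and LRP6. ZNRF3 and RNF43 encode ubiquitin ligases that remove Frizzled receptors from the cell surface, and LGR5 encodes a receptor for R-spondins, which block these ligases. CTNNB1 encodes β-catenin itself, AXIN2 an inducible scaffold of the destruction complex, NKD1 an inhibitor that binds Dishevelled, and TCF7 and TCF7L2 encode DNA-binding partners of β-catenin.

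WNT9A and DKK1 were the members past 2-fold on the scale used for calls, in which 1 is added to each level, and their promoter windows are shown for that reason. LGR5 passed 2-fold without that addition. The windows are RefSeq sequences of the assembly GRCh38.p14 and run from 250 bases before to 50 bases after the annotated start. Capitals mark 2 kinds of letters, searched on both strands. The first are the core form CTTTGAA, which TCF and LEF factors can bind, with its variants written as CTTTGAT, also as CTTTGTA and also as CTTTGTT, and the second is TATAA, part of the TATA box. The DKK1 window is chr10:52314031-52314330 on the plus strand and the WNT9A window is chr1:227947883-227948182 on the minus strand, both written 5′ to 3′.
DKK1: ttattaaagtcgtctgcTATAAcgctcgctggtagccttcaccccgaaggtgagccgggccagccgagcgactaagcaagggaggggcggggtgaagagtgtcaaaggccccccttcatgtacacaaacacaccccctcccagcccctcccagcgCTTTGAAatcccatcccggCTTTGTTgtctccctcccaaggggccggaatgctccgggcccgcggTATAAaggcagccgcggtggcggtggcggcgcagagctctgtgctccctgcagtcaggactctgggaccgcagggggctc
WNT9A: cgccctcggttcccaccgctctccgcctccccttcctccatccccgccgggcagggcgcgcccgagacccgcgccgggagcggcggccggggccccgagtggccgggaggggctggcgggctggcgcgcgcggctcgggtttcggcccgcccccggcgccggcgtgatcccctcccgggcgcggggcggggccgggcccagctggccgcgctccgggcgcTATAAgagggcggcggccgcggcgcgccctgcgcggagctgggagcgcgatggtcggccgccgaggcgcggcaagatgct
Positions give the first base of a match, and -1 is the base before the start site. The DKK1 window held CTTTGAA at -95 and CTTTGTT at -76, and it held TATAA at -233 and again at -30. The WNT9A window held TATAA at -30 and none of the TCF forms. Of 35116 RefSeq windows of the same length, 13.8% held at least 1 of the TCF forms and 20.4% held TATAA. Such letters anywhere in a window are therefore common. Shares at a given position, or of windows with 2 TCF forms, were not computed. The WNT9A window had 83.0% G and C and 53 CpG dinucleotides, against medians of 58.7% and 14 over all windows, while the DKK1 window had 63.7% and 20. Windows were found for 6 of the 10 members, which had 10 windows in all, and 3 of these windows, 1 each of DKK1, TCF7 and TCF7L2, held a TCF form. AXIN2, LGR5, NKD1 and ZNRF3 had no entry.

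Levels are given in TPM, a measure of transcript abundance scaled to the length of the transcript and the size of the library, summed over the annotated transcripts of a gene, so that genes can be compared. An estimated 28187793 fragments underlay the DMSO library and 23721989 the JIB-04 library. Of 10 markers of hepatocytes and hepatoma cells, all reached 1 TPM in at least 1 library, including AFP at 131 and 151 TPM, although ALB stood at only 9.74 and 4.53 TPM. Summed over the list, these markers stood at 9382 TPM in the DMSO library and 5915 TPM in the JIB-04 library. The keratins KRT8 (3212 and 1912 TPM) and KRT18 (4484 and 2214 TPM) made up that difference, and the other 8 markers summed to 1685 and 1789 TPM. Those 8 differed in both directions, with APOB at 103 and 32.9 TPM, SERPINA1 at 284 and 209 TPM and FGB at 771 and 961 TPM. Of all 10 markers, 6 had a log2 ratio below 0 and 4 above 0. The part of these markers in the results below was not tested. Of 10 markers of blood, endothelial and fibroblast cells, LYZ and COL1A1 reached 1 TPM, and PTPRC was listed at 0 in both libraries. LYZ was at 57.3 and 41.9 TPM and COL1A1 at 16.03 and 10.64 TPM. LYZ and COL1A1 thus stood above the hepatocyte markers ALB, TTR (3.91 and 7.06 TPM) and APOA1 (1.34 and 0.99 TPM) in both libraries. The remaining hepatocyte and hepatoma markers stood above COL1A1 in both libraries.

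CTNNB1 and DKK1 were by far the most abundant members in the DMSO library. CTNNB1 was at 240 TPM in the DMSO library and 262 TPM in the JIB-04 library. DKK1 was at 211 TPM in the DMSO library and 56.6 TPM in the JIB-04 library. A middle group in the DMSO library comprised ZNRF3 at 15.3 TPM, TCF7L2 at 14.9 TPM and RNF43 at 11.2 TPM, followed by TCF7 at 4.55 TPM, AXIN2 at 2.89 TPM, WNT9A at 1.57 TPM and LGR5 at 1.11 TPM. NKD1 was lowest, at 0.13 TPM in the DMSO library and 0.24 TPM in the JIB-04 library. It stayed below the 1 TPM in either library that was required for a gene to be described, so 9 of the 10 members were described. In the JIB-04 library WNT9A stood between TCF7L2 at 12.3 TPM and RNF43 at 9.39 TPM. Neighbors in this order cannot be separated beyond replicate spread, because there is none to measure.

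**Figure D1:**
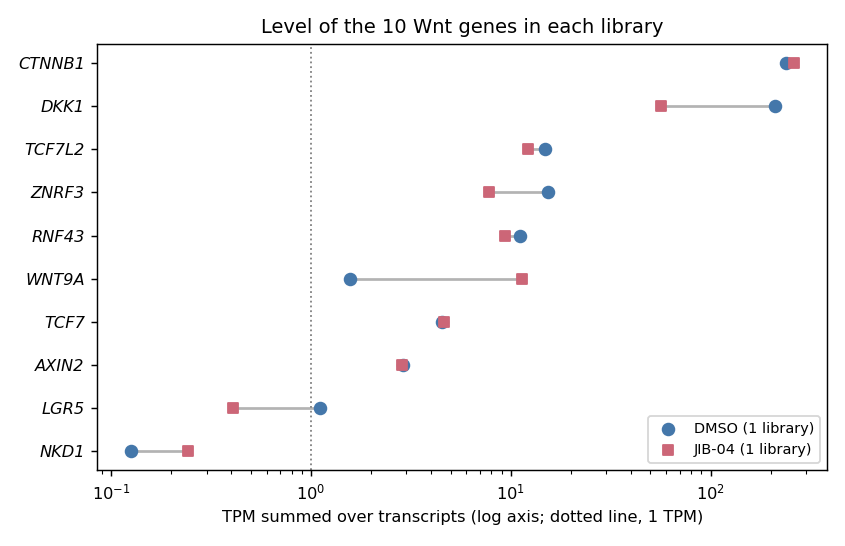
Each row is 1 of the 10 genes, with its TPM on a logarithmic x axis, blue circles for the DMSO library, red squares for the JIB-04 library and a gray line joining them; the dotted line is 1 TPM. DKK1 (211 and 56.6 TPM) and WNT9A (1.57 and 11.4 TPM) have the longest lines, in opposite directions, and the symbols of AXIN2 and TCF7 nearly coincide.

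Ratios were computed as log2 of TPM plus 1 with JIB-04 over TPM plus 1 with DMSO, which understates the difference of weakly expressed genes. Intervals are 95% exact conditional binomial intervals on estimated fragments, and they cover counting error only, not differences between cultures or library preparations. The median log2 ratio of the 14450 described genes was -0.15, so differences from this median are given as well. Of all described genes, 5.99% were higher by 2-fold or more after JIB-04 and 6.88% were lower by as much. When the median of well expressed genes was set to 0 these shares were 7.67% and 4.70%. Of the 9 described members 1, WNT9A, was higher by 2-fold or more and 1, DKK1, was lower by 2-fold or more, and both kept these calls under that scaling. With 9 genes, these counts do not set the members apart from that background.

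The ligand gene WNT9A (chromosome 1 of hg19, 228109165 to 228135676, minus strand) had 1.57 TPM in the DMSO library and 11.4 TPM in the JIB-04 library, a TPM ratio of 7.30. Its log2 ratio was 2.28, with an interval of 1.83 to 2.70 from an estimated 23 and 139 fragments, and it lay 2.42 above the median gene. This placed WNT9A at percentile 99.3 of the ratios of all described genes, although its mean level was only at percentile 25.2. In such bulk RNA, more cells with a transcript and more of it per cell cannot be told apart. All 4 WNT9A exons were higher with JIB-04. On the TPM scale exon 3 was at 2.83 in the control and 20.6 after JIB-04, and the last exon at 1.77 and 10.9. The first exon was almost without coverage in the DMSO library, at 0.05, and was at 3.21 with JIB-04 from an estimated 5.78 fragments.

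DKK1 (chromosome 10 of hg19, 54074041 to 54077417, plus strand), the antagonist, was lower with JIB-04 at a TPM ratio of 0.27. Its log2 ratio of -1.88 had an interval of -1.98 to -1.78 from 4525 and 1005 fragments, lay at -1.73 from the median gene and was at percentile 0.55 of all described genes. The difference ran evenly along the gene, with ratios between 0.25 and 0.30 over its 4 exons. No other gene shared its exons on either strand, and DKK1 has a single annotated transcript in the files.

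The receptor-removing ligases were both lower by gene total, ZNRF3 by far more than RNF43. ZNRF3 (chromosome 22 of hg19, 29279755 to 29453476) was at 15.3 TPM in the DMSO library and 7.76 TPM in the JIB-04 library, a TPM ratio of 0.51. Its log2 ratio was -0.90 with an interval of -1.03 to -0.76, just inside the 2-fold threshold and at -0.75 from the median gene. All 9 exons of its detected transcript were lower, with ratios between 0.37 and 0.65, and without the last exon the log2 ratio was -1.06, past 2-fold. The transcript that begins farther upstream, NM_001206998, carried all of the signal, whereas NM_032173 was listed at 0 in both libraries. RNF43 (chromosome 17 of hg19, 56429861 to 56494943) stood at 11.2 and 9.39 TPM, for a log2 ratio of -0.23 with an interval of -0.38 to -0.08. That is -0.08 from the median gene.

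Within RNF43 the last exon and the exons before it differed in opposite directions. The first 9 exons of its main transcript together were at 17.5 on the TPM scale with DMSO and 10.7 with JIB-04, a ratio of 0.61, and each of the 9 was lower, at ratios between 0.30 and 0.75. The last exon, of 2487 bases, was at 1.65 in the control and 7.68 after JIB-04, a ratio of 4.65 from an estimated 49 and 188 fragments. In the DMSO library exon 9, just upstream, stood at 20.6. Exons other than the last gave RNF43 a log2 ratio of -0.66. TSPOAP1-AS1, annotated on the other strand, overlaps 49.4% of this last exon but was at only 0.15 and 0.04 TPM. The next gene downstream on the same strand, SUPT4H1, begins 262 bases beyond it and was at 75.6 and 59.8 TPM, and its part in the last exon's coverage was not tested. The transcript NM_001305545 held 24.0% of the RNF43 TPM with DMSO and was listed at 0 with JIB-04, and the main transcript NM_017763 was at 8.48 and 9.39 TPM. The exon annotated only for NM_001305545 was at 0.005 on the TPM scale with DMSO. The division of reads among the RNF43 transcripts is an estimate of the authors' tool.

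To place this, the log2 ratio of the last exon over the other exons was computed in each library. It was taken over 3058 genes with 1 annotated transcript, at least 4 exons and a mean of at least 5 TPM. Genes whose last exon or other exons together stood below 1 on the TPM scale in either library were left out. The median of this log2 ratio was -0.28 with DMSO and -0.38 with JIB-04. The ratio was higher in JIB-04 than in DMSO in 41.0% of the 3058 genes. The central 95% of the change between libraries ran from -0.95 to 0.50. RNF43 changed by 2.93, above all 3058 genes. RNF43 and TCF7L2, which unlike those genes have several annotated transcripts, were picked for this comparison after their exon values had been seen.

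**Figure D2:**
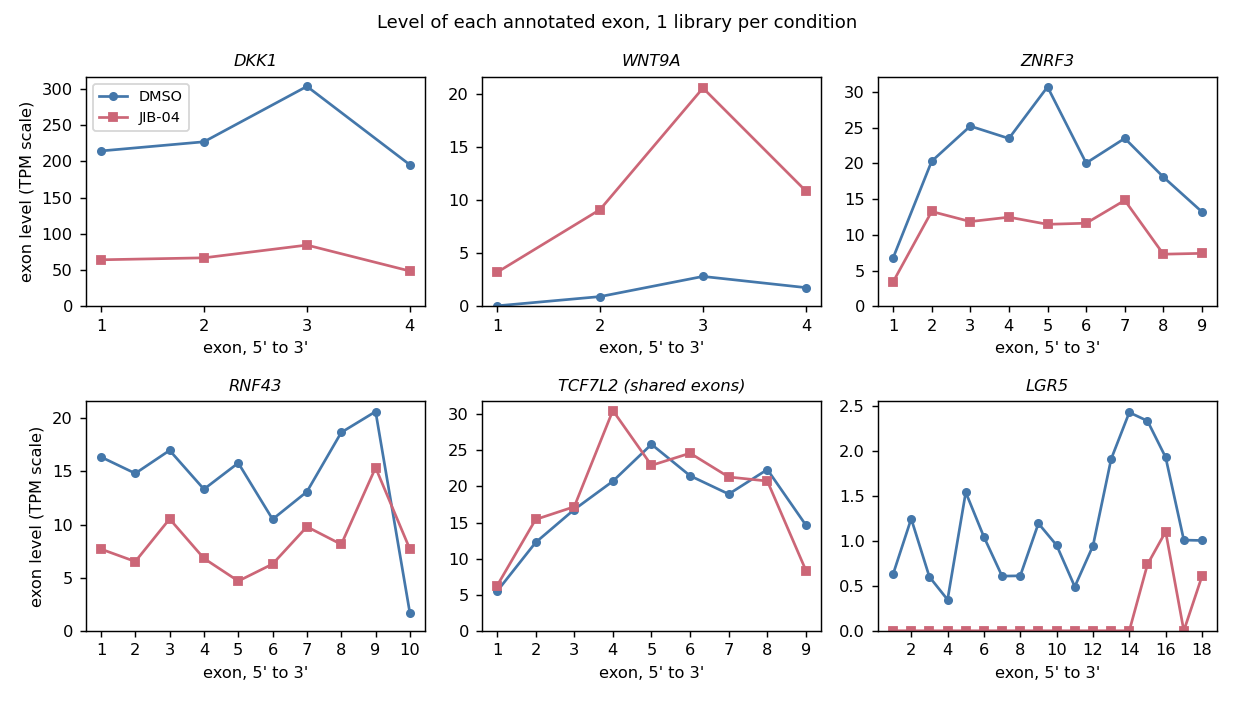
Each panel is 1 gene, with its exons in order from 5′ to 3′ on the x axis and exon level on the TPM scale on the y axis, blue circles for the DMSO library and red squares for the JIB-04 library. RNF43, DKK1, WNT9A, ZNRF3 and LGR5 are drawn for the most abundant transcript and TCF7L2 for the exons shared by its detected transcripts; the last RNF43 exon goes from 1.65 to 7.68 and the last TCF7L2 exon from 14.6 to 8.35.

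LGR5 (chromosome 12 of hg19, 71833550 to 71980088), the R-spondin receptor gene and a target of the pathway, was near the limit of detection. It was at 1.11 TPM in the DMSO library and 0.41 TPM in the JIB-04 library, a TPM ratio of 0.37 from 60 and 18 estimated fragments. Its log2 ratio was -0.58 with an interval of -0.84 to -0.29, and with a pseudocount of 0.1 in place of 1 it was -1.25, past 2-fold. With DMSO all 18 exons of the main transcript had coverage, whereas with JIB-04 3 exons had any. About 16 of the 18 fragments of the JIB-04 library lay in the last exon, of 2662 bases, where the level was 1.01 in the control and 0.61 after JIB-04. At this depth the shape of the LGR5 coverage with JIB-04 rests on very few fragments.

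On the scale with 1 added, the feedback genes AXIN2 and NKD1 showed no difference beyond counting error. AXIN2 (chromosome 17 of hg19, 63524683 to 63557740) was at 2.89 TPM in the DMSO library and 2.84 TPM in the JIB-04 library, a log2 ratio of -0.02 with an interval of -0.28 to 0.25, and the ratio was 0.10 when the median of well expressed genes was set to 0. Within AXIN2, exons 6 to 9 had ratios of 0.55 to 0.65 and the last exon a ratio of 1.31 from an estimated 40.5 and 43.9 fragments. Its first exon was at 0 in both libraries. NKD1 (chromosome 16 of hg19, 50582241 to 50674771) rested on 13 and 21 fragments, and its log2 ratio of 0.14 had an interval of -0.02 to 0.28. Its TPM ratio was 1.94, and with a pseudocount of 0.1 in place of 1 its log2 ratio was 0.60. At this level the value depends largely on the pseudocount, and NKD1 was too weak to be described.

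**Figure D3:**
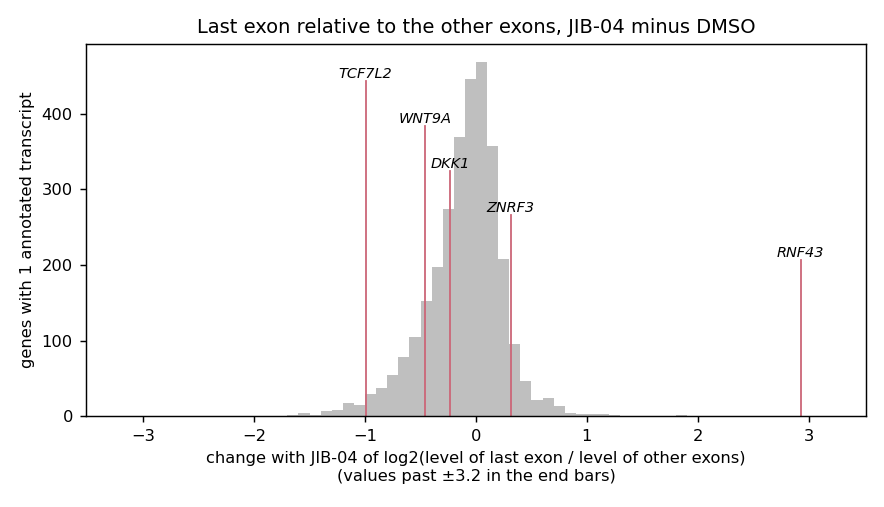
The gray histogram gives, for 3058 genes with 1 annotated transcript, the change with JIB-04 of the log2 level of the last exon over the other exons; red lines mark the 5 Wnt genes that had this measure and a mean of at least 5 TPM, and their heights carry no value. RNF43 at 2.93 lies to the right of the whole histogram, and TCF7L2 at -0.995 lies just below the central 95% of the genes.

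CTNNB1 (chromosome 3 of hg19, 41240915 to 41281944) had the narrowest interval of all members, with 9939 and 8947 fragments. Its log2 ratio of 0.13 had an interval of 0.09 to 0.17 and lay 0.28 above the median gene, at percentile 68.6. The 13 exons shared by its transcripts had ratios from 0.99 to 1.25. The 3 transcripts that run from 41240942 to 41281939 carried nearly all of the TPM. Among them NM_001098210 was at 73.8 TPM in the DMSO library and 102 TPM in the JIB-04 library, or 30.8% and 38.7% of the gene. NM_001098209 was at 72.5 and 62.5 TPM, and NM_001904 at 92.2 and 97.3 TPM. These transcripts differ in how the 3′ end of the gene is spliced, and the division of reads among them is an estimate of the authors' tool.

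Of the DNA-binding partners, TCF7 (chromosome 5 of hg19, 133450389 to 133483920) was nearly equal in both libraries, at 4.55 and 4.62 TPM. Its log2 ratio of 0.02 had an interval of -0.25 to 0.28 and was -0.002 from FPKM, and NM_003202 carried 63.5% of its TPM with DMSO and 60.5% with JIB-04. TCF7L2 (chromosome 10 of hg19, 114710009 to 114927436) stood at 14.9 and 12.3 TPM, for a log2 ratio of -0.26 with an interval of -0.42 to -0.10. No transcript dominated, since 12 of its 15 annotated transcripts were above 0 and the highest share was 13.7% with DMSO, for NM_001198525, and 20.5% with JIB-04, for NM_001198529.

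In TCF7L2 the last exon was lower and the exons before it together were slightly higher, but without the uniform direction of the upstream RNF43 exons. Over the 9 exons shared by the detected transcripts, the 8 upstream exons together were at 12.8 on the TPM scale with DMSO and 14.6 with JIB-04, a ratio of 1.14. No counting-error interval was computed for that ratio, and the upstream exons had separate ratios from 0.89 to 1.47. Of the 9 shared exons, 6 had ratios above 1 and 3, including the last, below it. The last exon, of 2123 bases, was at 14.6 in the control and 8.35 after JIB-04, a ratio of 0.57 from an estimated 370 and 174 fragments. Its change of last over other exons was -0.995, at percentile 1.99 of the 3058 genes. Without the last exon the log2 ratio of TCF7L2 was 0.17, a small value without an interval, of the opposite sign to that of the total.

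**Figure D4:**
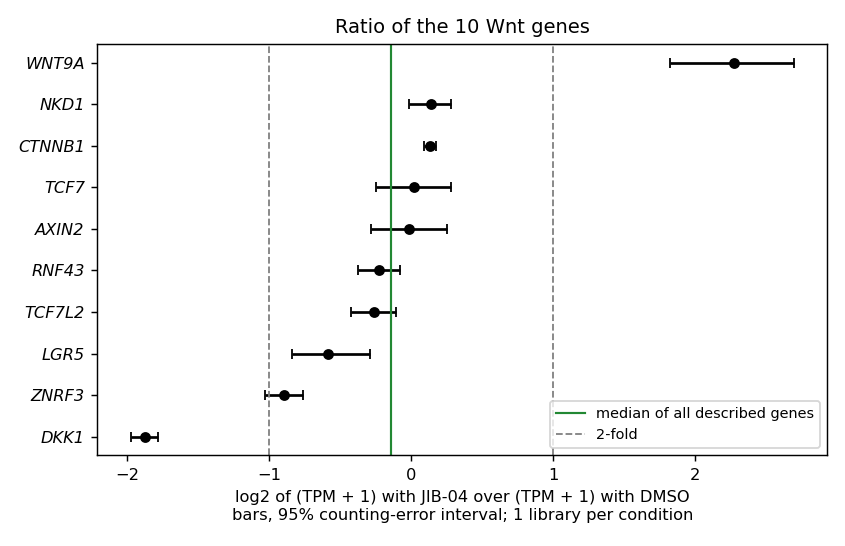
Each row is 1 of the 10 genes placed on the x axis by its log2 ratio (JIB-04 over DMSO), with bars for the 95% counting-error interval; the green line is the median of all described genes at -0.15 and dashed lines mark 2-fold. WNT9A at 2.28 and DKK1 at -1.88 lie outside the dashed lines, and the remaining genes lie between -0.90 and 0.14.

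For context, a list of 126 Wnt pathway genes in 9 roles, which includes the members, was described in the same way. Of its 85 described genes, 5 (5.88%) were higher by 2-fold or more and 3 (3.53%) lower by 2-fold or more, against 5.99% and 6.88% of all genes, and the median log2 ratio was -0.09 against -0.15 over all genes. Without the members, 4 of 76 were past 2-fold upward and 2 downward. Each role described below holds few genes, so its counts are to be read beside the 5.99% and 6.88% of all genes.

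Among 19 ligand genes 7 were described, and WNT9A was the one past 2-fold. WNT7B was the most abundant ligand gene, at 94.3 TPM in the DMSO library and 89.9 TPM in the JIB-04 library. WNT10B stood at 7.51 and 12.3 TPM, for a log2 ratio of 0.65, and WNT3 at 12.1 and 7.67 TPM, a log2 ratio of -0.59. WNT10A (0.02), WNT2B (0.29) and WNT11 (0.13) had log2 ratios whose intervals held 0. PORCN, which attaches the lipid that ligands need, was at 21.5 and 25.5 TPM. It was the 1 described gene of the 2 listed for ligand maturation.

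Secreted antagonists were few in these cells. Of 17 antagonist and related genes 6 were described, and DKK1 alone was past 2-fold. DKK3, a divergent relative of DKK1, had the highest ratio, at 23.2 TPM in the DMSO library and 43.0 TPM in the JIB-04 library (log2 ratio 0.86, interval 0.73 to 0.99). Summed over these genes the TPM was 267 in the control and 132 after JIB-04, while without DKK1 it was 56.5 and 75.2. LRP5 and LRP6, the binding partners of DKK1, named here for that role after their values were seen, were at 124 and 71.7 TPM and at 24.2 and 15.8 TPM.

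Of 14 described receptor genes 1, FZD7, was at least 2-fold higher, at 0.86 TPM in the DMSO library and 6.71 TPM in the JIB-04 library. Its log2 ratio was 2.05 with an interval of 1.78 to 2.30. FZD2 had the lowest ratio, at 12.6 and 5.90 TPM (log2 ratio -0.98, from -1.18 to -0.78), and FZD4 the highest among receptor genes with a mean of at least 5 TPM, at 7.40 and 9.14 TPM. Of the LGR and turnover genes, LGR4, the abundant relative of LGR5, stood at 85.8 and 141 TPM, for a log2 ratio of 0.71 with an interval of 0.65 to 0.76.

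Of 22 described genes of the cytoplasmic signal, NKD2, a relative of NKD1, was at 1.35 TPM in the DMSO library and 5.07 TPM in the JIB-04 library, a log2 ratio of 1.37. CSNK1E, a casein kinase gene, was at 43.0 and 95.1 TPM (log2 ratio 1.13), but 88.0% of its exonic bases also belong to a second gene of that strand, so its value is uncertain. FRAT1, an inhibitor of GSK3, had the lowest log2 ratio, -0.54. Of 22 nuclear factors, TCF7L1, a mostly repressive TCF, was at 0.79 and 3.97 TPM (log2 ratio 1.47, from 1.13 to 1.78), TLE1, a co-repressor, had a log2 ratio of 0.58 and the ATPase gene RUVBL1 one of -1.37.

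General Wnt targets were mixed. Of 13 described targets, BMP4, which encodes a bone morphogenetic protein, and DKK1 were past 2-fold downward, while no target passed 2-fold upward. Of all described genes 6.88% were lower and 5.99% higher by as much, and counts among 13 genes do not set the targets apart from that. The median log2 ratio of the 13 targets was -0.23. BMP4 was at 30.3 and 13.5 TPM, while CCND1, which encodes cyclin D1, was at 258 and 343 TPM. Of 9 described targets of the pericentral liver none was past 2-fold. TBX3, a transcription factor gene, had the lowest log2 ratio, -0.95 (interval -1.05 to -0.84), and GLUL, which encodes glutamine synthetase, was at 11.8 and 14.9 TPM. The general and pericentral lists overlap, since AXIN2, LGR5, NKD1, RNF43 and ZNRF3 are on both.

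**Figure D5:**
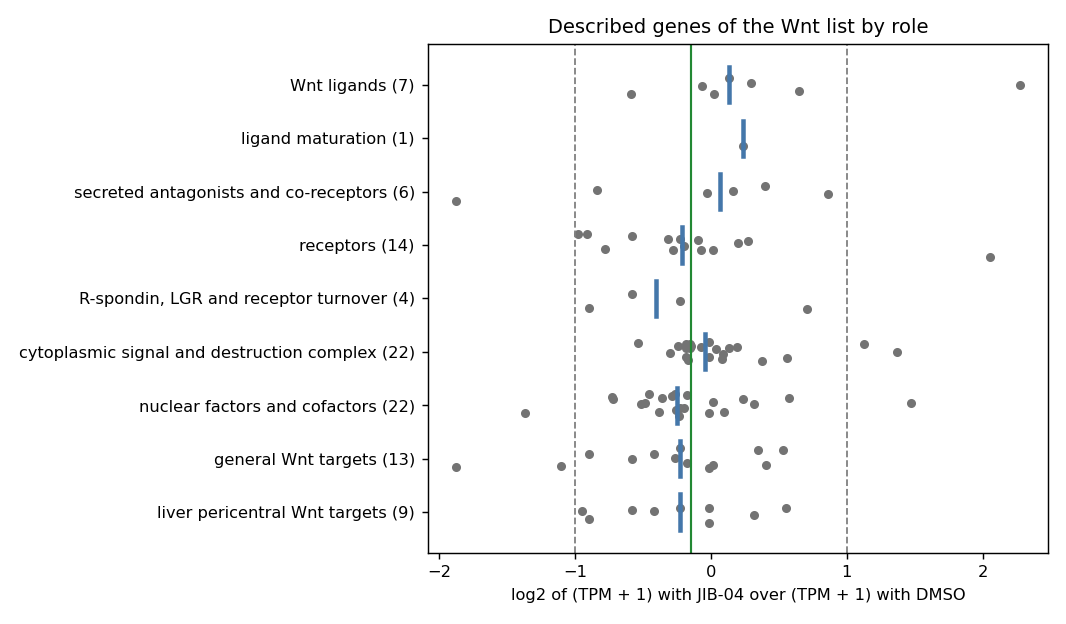
Gray points stand for the described Wnt list genes, placed on the x axis by their log2 ratios (JIB-04 over DMSO), in rows by role with the number of genes in parentheses; vertical scatter carries no value and a gene can be in more than 1 row. Blue bars are the medians of the rows, the green line the median of all described genes at -0.15 and dashed lines 2-fold; WNT9A at 2.28 and FZD7 at 2.05 lie farthest right and DKK1 at -1.88 farthest left.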

How the data were processed

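Stranded mRNA libraries were sequenced from PLC/PRF/5 cells, 1 in DMSO and 1 in JIB-04. Tools listed in the submitters' notes were StringTie 1.3.3b, HISAT2 2.0.5, Bowtie2 2.2.6, Trimmomatic 0.32 and FastQC 0.11.5, with the build hg19 (GRCh37). Per the file headers, StringTie estimated annotated RefSeq transcripts only, with a strand setting. As deposited by the authors, the values are coverage, FPKM and TPM of each transcript and coverage of each exon, without read counts. The attribute text that holds them was read as other text.

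TPM was summed per gene and compared with a pseudocount of 1. Genes with at least 1 TPM in either library, 14450 in number, were described, and ratios of at least 2 or at most 0.5 were called. Aligned bases (coverage multiplied by length) were divided by 202, the value most often seen on weak genes, to estimate fragments. Of such genes with 1 transcript and under 1000 aligned bases, 29.9% and 29.0% lay within 2 bases of a whole multiple, so fragments and intervals are estimates. Exon levels are exon coverage times the library's ratio of TPM to coverage, summed over transcripts with the same exon. Symbols came from an NCBI RefSeq table of GRCh38.p14, which named 27559 of 27685 genes. Gene coordinates are those of hg19, and promoter windows those of GRCh38.p14. The named genes are the 10 members, all genes of the Wnt list past 2-fold, all described ligands, and the highest and lowest log2 ratio of each role with a mean of at least 5 TPM. The members and lists were chosen with earlier results of these data known. The procedure was tested on simulated counts drawn with the same kind of counting error that the intervals assume. That test did not cover the fragment estimate, the split between transcripts or differences between cultures. Python 3.11.15, numpy 2.4.6, pandas 2.3.3, SciPy 1.17.1 and matplotlib 3.10.9 were used.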

Additional observations from a re-analysis of the deposited data

How the results depend on the processing

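The members were recomputed with pseudocounts of 0.1 and 5, FPKM, the most abundant transcript of a gene, and a scaling that sets to 0 the median over 9007 well expressed genes. Of 50 such values 37 lay within the counting-error interval of the member and 13 outside it, so the intervals do not cover the choice of processing. Of the same 50, 45 kept their sign. The exceptions, all of small ratios, were AXIN2 under the scaling, TCF7 from FPKM and from its main transcript, and RNF43 (0.13) and TCF7L2 (0.47) from their main transcripts. WNT9A ranged from 1.32 with a pseudocount of 5 to 2.79 with one of 0.1. Members at least 2-fold lower numbered 2 with a pseudocount of 0.1, where LGR5 joined DKK1, and 2 at 1.5-fold, DKK1 and ZNRF3. On the Wnt list, genes called higher numbered 3 from FPKM (3.80%, against 4.48% of all genes under the same setting), 2 with a pseudocount of 5 (2.35% against 3.04%), 8 from main transcripts (9.52% against 7.55%), 8 at 1.5-fold (9.41% against 12.8%) and 2 at 3-fold (2.35% against 2.2%). Genes called lower numbered 5 with a pseudocount of 0.1 (5.88% against 9.94%), 5 from main transcripts (5.95% against 8.97%), 12 at 1.5-fold (14.1% against 21.0%) and 1 at 3-fold (1.18% against 1.07%). The list's median log2 ratio was 0.025 under the scaling, against -0.005 for all described genes under the same scaling. The comparison without the last exon was added after the data had been seen. No paired analysis was possible because each condition has 1 library. WNT9A had the widest counting-error interval of the members, and NKD1 and LGR5 the fewest fragments over both libraries.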
